A study of Mus musculus with 24 samples.

Results

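Collagens are the chains from which fibrils, filaments and sheets of the extracellular matrix are built. The genes described here were those of the nuclear gene count table whose symbol is Col, digits, the letter a, digits and nothing more, which picked 34 genes of 31346. RNA was measured by polyA RNA-seq in 24 samples of whole mouse retina, 1 sample per mouse, with as many females as males in each group. Whether a sample held 1 or both retinas of a mouse is not stated, and each sample is called a retina below. The rd10 mice are on a C57BL/6J background and carry a missense change in Pde6b, which encodes a subunit of the rod phosphodiesterase. The rd10 TMB group (n = 8) was raised in darkness, was given tamsulosin, metoprolol and bromocriptine in its chow from postnatal day 28 (P28), was moved to vivarium light on P29 and was sampled on P37. The rd10 vehicle group (n = 8) had the same rearing, light and sampling day on base chow. The dark-reared rd10 group (rd10 DR, n = 4) stayed on base chow, never saw light and was sampled on P28. The WT group (n = 4) was C57BL/6J on base chow, with the sampling day of the vehicle group. Whether it shared the dark rearing of the vehicle group is not stated in the paper. These days are those of the design text, whereas the sample labels give days 36 and 30. Tamsulosin blocks alpha-1 adrenergic receptors, metoprolol blocks beta-1 adrenergic receptors and bromocriptine activates dopamine D2-like receptors. On the day before sampling, retinal responses to light flashes were recorded in the TMB and vehicle mice under anaesthesia. For the WT and DR groups the paper names anaesthesia alone. The part of this recording and of rearing light in the comparisons with WT was not tested. The rd10 DR group differed from the vehicle and WT groups in age and light together, and from the vehicle group in the recording too. These cannot be told apart.

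A collagen molecule is a triple helix of 3 alpha chains, each a long run of short repeats that begin with glycine. Fibril-forming chains assemble into cross-linked fibrils, fibril-associated chains decorate them, and other chains form beaded filaments, anchoring fibrils, hexagonal networks, membrane-spanning proteins or multiplexins, which sit at basement membranes. In the eye, chains of types II, IX, V and XI make up the fibrils of the vitreous, the gel in front of the retina, and much of this matrix comes from the ciliary body and from Müller glia, the radial glia of the retina. Type VIII chains belong to the hexagonal sheets of the membrane below the corneal endothelium.

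The libraries held 56799680 to 86471014 nuclear counts. These exceed the reads per library that the paper states, and the sources do not say why. Values below are CPM, counts relative to library size, scaled by TMM factors over all 24 libraries. Pde6b averaged 1356 ± 359 CPM in rd10 TMB, 737 ± 289.7 CPM in rd10 vehicle and 2228 ± 50.3 CPM in rd10 DR retinas, against 3896 ± 283 CPM in WT retinas (SD, n = 8, 8, 4 and 4). All 10 rod markers were lower than in WT in the 3 rd10 groups, with median log2 fold changes of -1.55 in rd10 TMB, -2.35 in rd10 vehicle and -0.72 in rd10 DR. Of 10 Müller glia markers, 10 were higher in rd10 TMB, 10 in rd10 vehicle and 7 in rd10 DR, and all 10 microglia and macrophage markers were higher in each. Of 10 endothelium markers, 5, 8 and 7 were higher in rd10 TMB, rd10 vehicle and rd10 DR, and of 6 fibroblast markers 0, 1 and 0. Markers of inner neurons were also higher, in the same order 7, 7 and 4 of 8 for bipolar, 6, 6 and 2 of 7 for amacrine, 4, 4 and 1 of 5 for horizontal and 4, 6 and 2 of 6 for ganglion cells, with median log2 fold changes in rd10 vehicle of 0.82, 0.58, 0.76 and 0.44, and 5, 5 and 4 of 7 cone markers were. Of 5 erythrocyte markers 0, 0 and 5 were higher. In a whole retina, fewer cells of a type and less RNA per cell cannot be told apart. A few libraries stood apart in genes of tissues next to the retina. The level of 1 lens marker ran from 0.247 to 1216 CPM (median 6.34) in rd10 TMB and 2.73 to 65.4 CPM in rd10 vehicle retinas. In rd10 DR retinas it ran from 0 to 26.3 CPM and in WT retinas from 4.87 to 70.6 CPM. The sum of 4 cornea and conjunctiva markers reached 6.38 CPM in rd10 TMB and 2.71 CPM in rd10 vehicle. No retina was left out on account of these markers. Optc, opticin, a vitreous proteoglycan made by the ciliary body, was at 112, 35.6, 168 and 5.21 CPM in WT retinas 1 to 4. It was at 15.99 CPM in vehicle retina 1, against 73.3 to 166 CPM in the other vehicle retinas. Of 4 ciliary body and iris markers, 3, 2 and 0 were higher in rd10 vehicle, rd10 TMB and rd10 DR than in WT. Among these markers, Wfdc1 was also low in vehicle retina 1, at 9.35 CPM. Otx1 (5.55 CPM), Zic1 (16.6 CPM) and Opcml were there within the range of the other vehicle retinas. In WT retinas Otx1, Wfdc1 and Zic1 went in the order of Optc, and Opcml did not. The sum of 7 pigment epithelium genes was 582, 793 and 865 CPM in TMB retinas 2, 3 and 4, against 185 to 243 CPM in the other 5 TMB retinas. The part of these cell types and libraries in the results was not tested. Values without these libraries are given beside some of the genes whose call or size they changed. Genes shown without such values may have changed as well.

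Per kilobase of exon, the family spanned 906-fold in mean level over the 24 retinas. Col9a1 was highest at 41.04 CPM per kilobase, followed by Col23a1 at 36.1, Col18a1 at 30.2, Col6a1 at 22.6, and Col2a1 and Col9a3 both at 16.9. A type IX chain, a chain that spans the cell membrane, a multiplexin, a type VI chain and the type II chain thus led these 34 genes. The 34 genes do not cover every collagen chain, so the ranking and the sum below hold for them alone. At the other end, 3 genes had a mean below 1 CPM in all 4 groups: Col14a1, a fibril-associated chain (highest group mean 0.994 CPM), Col6a5, a type VI chain (0.4904 CPM), and Col10a1, the type X chain of growing cartilage (0.312 CPM). Col14a1 lay at the limit, with a median below 1 CPM in 3 of the 4 groups. All 34 genes passed the count filter of every comparison. The summed level of the 34 genes was 1304 to 1687 CPM in rd10 TMB, 1378.5 to 1689 CPM in rd10 vehicle and 1445 to 1699.8 CPM in rd10 DR retinas, against 766 to 1280 CPM in WT retinas. No rd10 retina lay within the WT range.

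More collagen genes were higher than lower in each rd10 group against WT, and these 3 comparisons share the 4 WT retinas. In rd10 TMB against WT, 14 of the 34 were higher and 4 lower (edgeR quasi-likelihood test, Benjamini-Hochberg adjusted p under 0.05 over 20848 genes), beside 27.2% higher and 24.9% lower of all genes tested. Their median log2 fold change was 0.48, against 0.00 over all genes. In rd10 vehicle against WT, 19 were higher and 4 lower, beside 31.6% and 30.2% of 20763 genes, with a median of 0.54 against 0.01 over all genes. In rd10 DR against WT, 10 were higher and 4 lower, beside 14.5% and 10.2% of 20051 genes, with a median of 0.32 against 0.00. The retinas of both groups did not overlap for 10 genes in rd10 TMB against WT, 13 in rd10 vehicle against WT and 13 in rd10 DR against WT, all of them called, beside 32.6%, 42.2% and 26.9% of all genes tested. The family was not tested as a set.

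**Figure D1:**
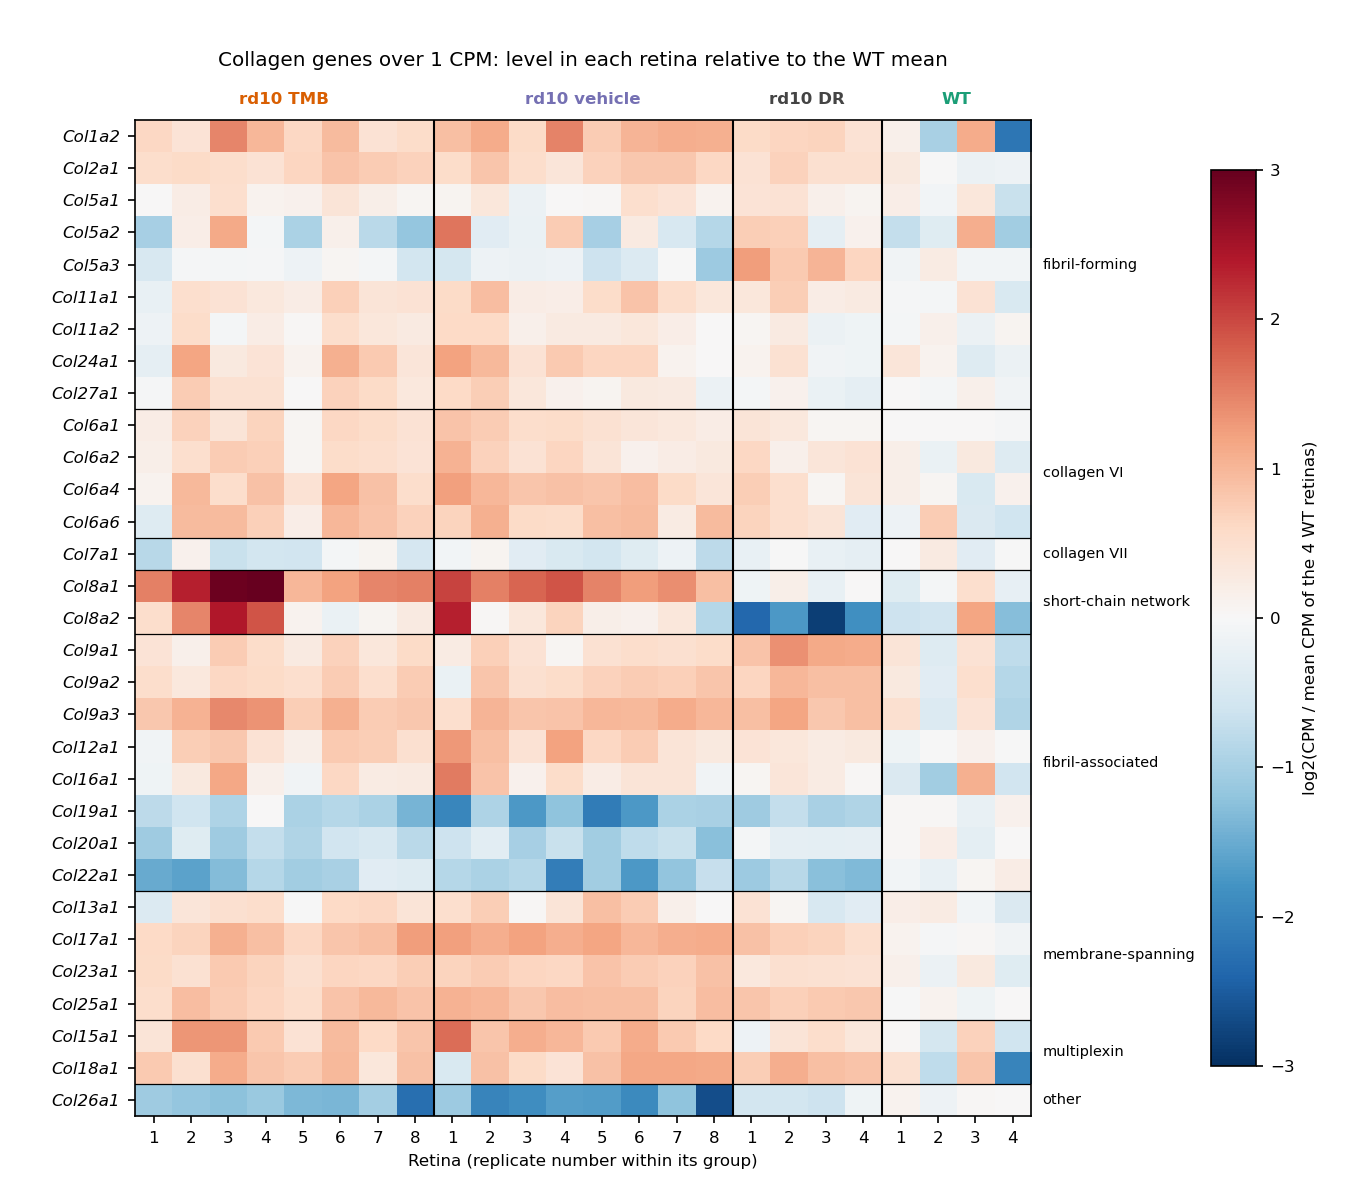
Level of the 31 collagen genes over 1 CPM in each of the 24 retinas, as log2 of the CPM over the mean of the 4 WT retinas (colour scale, -3 to 3), with genes in rows by class and retinas in columns by group. Col8a1 is strongest in TMB retinas 3 and 4 (56.1 and 62.1 CPM), and Col26a1 and Col22a1 are below the WT mean in the rd10 TMB and rd10 vehicle retinas.

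The size of these counts rested on which WT retinas were used. Without WT retinas 2 and 4, those with the lowest Optc, 9 genes were higher in rd10 TMB, 11 in rd10 vehicle and 7 in rd10 DR, and 3, 4 and 3 lower. Over all genes 18.2%, 23.5% and 7.73% were higher and 14.7%, 21.2% and 5.77% lower in these fits. Leaving out single retinas gave 12 to 19 higher for rd10 TMB, 13 to 20 for rd10 vehicle and 6 to 17 for rd10 DR, the last with 6 without WT retina 2 or DR retina 2 and 17 without WT retina 3. The share of all genes higher then ran over 23.6 to 28.2%, 28.4 to 32.1% and 10 to 18.5%. Calls that held in every alternative run numbered 7 of 14 higher and 3 of 4 lower in rd10 TMB, 9 of 19 and 4 of 4 in rd10 vehicle, and 5 of 10 and 3 of 4 in rd10 DR. Without TMM scaling the median of all genes tested was 0.17 in rd10 TMB, 0.22 in rd10 vehicle and 0.09 in rd10 DR. The whole table then split 8132 higher and 2740 lower in rd10 TMB, 9337 and 3574 in rd10 vehicle, and 4366 and 1171 in rd10 DR, and the collagen genes 20 and 4, 20 and 4, and 12 and 3.

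**Figure D2:**
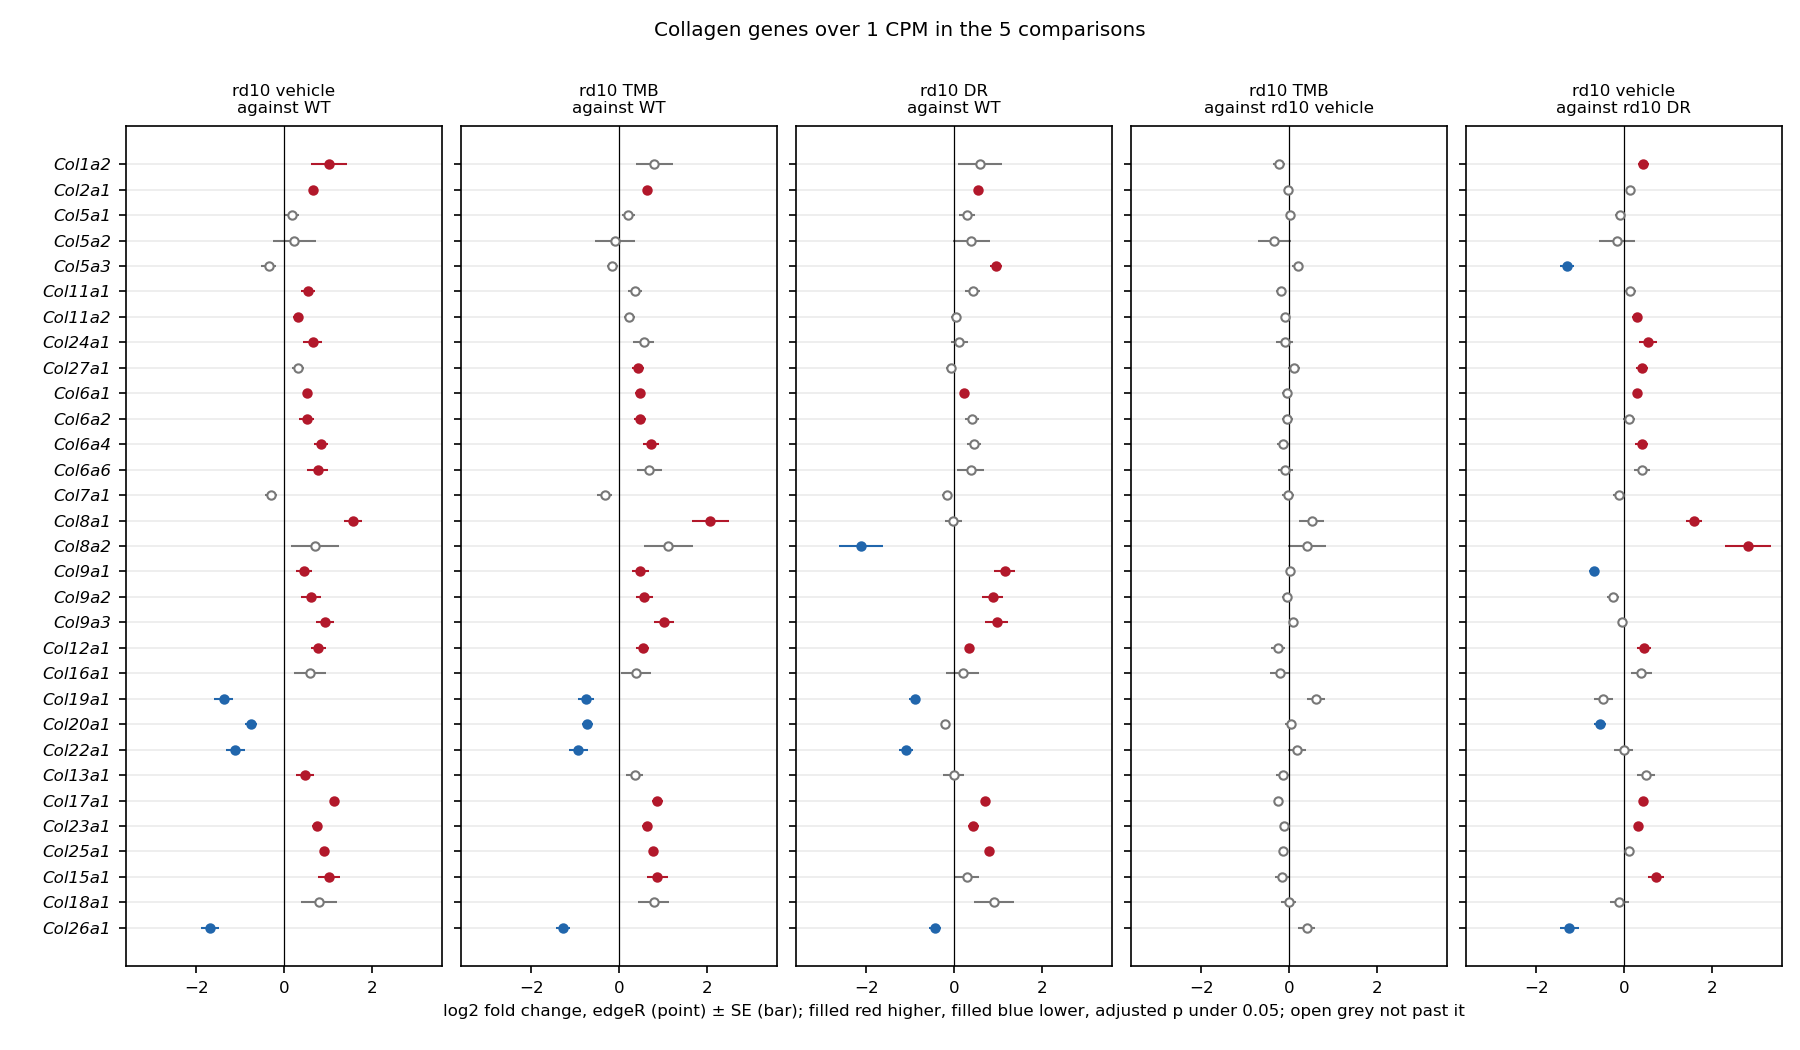
Fold changes of the 31 collagen genes over 1 CPM in the 5 comparisons, as log2 fold change from edgeR (points) with the SE (bars). Red points are higher and blue points lower at an adjusted p under 0.05, open grey points did not pass, and the panel of rd10 TMB against rd10 vehicle holds 0 coloured points.

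Among the fibril-forming chains, Col2a1 was the one higher in all 3 comparisons with WT. It encodes the chain of type II collagen, the main fibril of cartilage and vitreous. The levels of Col2a1 were 145 to 194 CPM (median 164) in rd10 TMB and 139 to 193 CPM (median 168) in rd10 vehicle retinas. The 4 rd10 DR retinas had 145, 172, 149 and 150.4 CPM, against 131, 106, 95.3 and 97.5 CPM in WT. Every rd10 retina lay above every WT retina. The log2 fold changes against WT were 0.64 (SE 0.09, adjusted p = 3.98e-05) in rd10 TMB, 0.66 (SE 0.10, adjusted p = 4.13e-05) in rd10 vehicle and 0.54 (SE 0.09, adjusted p = 0.00204) in rd10 DR, and these calls held in every alternative run.

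Col5a3, a chain of type V collagen, which helps to start fibrils and set their width, was highest in the dark-reared retinas. For Col5a3, the rd10 TMB retinas ran from 6.77 to 10.3 CPM (median 9.47) and the rd10 vehicle retinas from 4.66 to 9.85 CPM (median 8.13). Dark-reared rd10 DR retinas gave 23.5, 17.04, 19.999 and 15.4 CPM, against 9.22, 11.7, 9.3 and 9.37 CPM in WT retinas. The DR retinas were above all 20 others. It was 1.94-fold higher in rd10 DR than in WT (log2 0.96, SE 0.13, adjusted p = 0.000518). The log2 fold change was -0.15 (adjusted p = 0.296) in rd10 TMB and -0.35 (adjusted p = 0.0689) in rd10 vehicle, and the second was called without vehicle retina 7 (-0.42, adjusted p = 0.0341). The genes of the other type V chains, Col5a1 and Col5a2, were called in no comparison.

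Col1a2, a chain of type I collagen, the fibril of skin and bone, passed narrowly in rd10 vehicle against WT. In rd10 TMB retinas Col1a2 lay at 29.7 to 62.4 CPM (median 34.6), and in rd10 vehicle retinas at 33.5 to 63.1 CPM (median 46.3). Values in rd10 DR retinas were 33.7, 35.3, 35.5 and 30.4 CPM, against 24.8, 11.5, 48.5 and 5.02 CPM in WT. The WT values spread over a wide range and went in the same order as Optc. The log2 fold change in rd10 vehicle was 1.03 (SE 0.41, adjusted p = 0.0393), and the call was lost without WT retina 1, 2 or 4 or vehicle retina 2, 4, 6, 7 or 8 (adjusted p = 0.0527 to 0.123). In rd10 TMB it was 0.80 (adjusted p = 0.121) and in rd10 DR 0.59 (adjusted p = 0.428). On leaving out WT retinas 2 and 4, those with the least Col1a2, it was 0.09 (adjusted p = 0.83) in rd10 TMB, 0.32 (0.275) in rd10 vehicle and -0.13 (0.729) in rd10 DR. On leaving out WT retina 3, the one with the most, it was 1.52 (0.00281), 1.74 (0.000548) and 1.31 (0.0109), in the same order.

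The genes of both type XI chains, which share fibrils with type II, were higher in rd10 vehicle than in WT. Col11a1 differed by 0.55 on the log2 scale (adjusted p = 0.00893), but 0.33 (adjusted p = 0.165) without WT retinas 2 and 4. Col11a2 had 0.32 (adjusted p = 0.0164) and was lost without WT retina 1 (adjusted p = 0.0507) or 3 (0.0552). Col24a1, a fibril-forming chain of bone and cornea, was higher in rd10 vehicle (0.66, adjusted p = 0.0165), but not without WT retina 3 (adjusted p = 0.0527) or 4 (0.0514), or without retinas 2 and 4 (0.106). Col27a1, a fibril-forming chain of cartilage, was higher in rd10 TMB (0.43, adjusted p = 0.0142), but not without WT retinas 2 and 4 (0.35, adjusted p = 0.158) or without TMB retinas 2, 3 and 4 (0.34, adjusted p = 0.0646).

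The 9 fibril-associated genes were called in both directions, as all genes together were. In rd10 TMB against WT 4 were higher and 3 lower, beside 27.2% and 24.9% of all genes. In rd10 vehicle against WT there were also 4 and 3, beside 31.6% and 30.2%. In rd10 DR against WT there were 4 and 2, beside 14.5% and 10.2%. The higher ones were those of the 3 chains of type IX, which coats type II fibrils, and Col12a1, whose chain sits on type I fibrils. The lower ones were Col19a1, Col20a1 and Col22a1. Col20a1, a little-studied chain of this class, averaged 36.7 ± 6.695 CPM in rd10 TMB, 35.8 ± 7.33 CPM in rd10 vehicle and 52.2 ± 4.04 CPM in rd10 DR, against 60.7 ± 8.09 CPM in WT (SD). Its log2 fold changes were -0.72 (SE 0.12, adjusted p = 0.000203), -0.76 (SE 0.14, adjusted p = 0.0002396) and -0.20 (SE 0.09, adjusted p = 0.1195), so that rd10 DR did not pass. Col12a1 averaged 25.6 ± 5.38 CPM in rd10 TMB, 30.4 ± 8.22 CPM in rd10 vehicle and 22.2 ± 1.08 CPM in rd10 DR, against 17.7 ± 1.28 CPM in WT (SD). Its log2 fold changes were 0.54 (adjusted p = 0.00766), 0.78 (0.00148) and 0.34 (0.00903), and without WT retinas 2 and 4 those in rd10 TMB (adjusted p = 0.0689) and rd10 DR (0.0648) were lost. Col14a1 and Col16a1, the other chains of this class, were called in no comparison, and Col16a1 averaged 9.26 ± 3.07 CPM in rd10 TMB, 10.7 ± 4.55 CPM in rd10 vehicle and 8.11 ± 0.909 CPM in rd10 DR, against 7.13 ± 5.29 CPM in WT (SD).

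Col9a1 has a long form typical of cartilage and a shorter form, from a downstream start, known from the eye. The 250 bases before both RefSeq starts are shown to set the windows beside each other (GRCm38.p6, plus strand, 5′ to 3′). The upstream window is chr1:24177360-24177609 and the downstream one chr1:24194953-24195202, which lies within the gene (chr1:24177610-24252684). Capitals mark the letters CCAAT, and neither window holds GGGCGG or TATAAA on either strand.
Col9a1 upstream start: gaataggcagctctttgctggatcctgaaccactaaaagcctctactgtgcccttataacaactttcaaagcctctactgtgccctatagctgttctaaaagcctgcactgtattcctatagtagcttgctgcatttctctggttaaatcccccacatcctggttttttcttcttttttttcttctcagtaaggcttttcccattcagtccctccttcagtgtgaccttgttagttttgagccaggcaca
Col9a1 downstream start: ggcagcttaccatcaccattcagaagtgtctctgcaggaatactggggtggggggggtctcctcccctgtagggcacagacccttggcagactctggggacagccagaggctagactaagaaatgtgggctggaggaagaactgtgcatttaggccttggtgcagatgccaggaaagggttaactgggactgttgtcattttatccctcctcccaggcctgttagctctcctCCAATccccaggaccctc
Both windows held 0 CpG dinucleotides, against a median of 6 over 32851 windows of this length, of which 29.0% held 2 or fewer. CCAAT on either strand was present in 33.8% of all windows. Counts per gene do not tell which start was used.

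Col9a1 was highest in the dark-reared retinas. Col9a1 was at 159 to 243 CPM (median 201) in rd10 TMB and 149 to 234 CPM (median 198) in rd10 vehicle retinas. The 4 rd10 DR retinas had 259.9, 371, 316 and 312 CPM, against 187, 109, 193 and 84.1 CPM in WT. Each DR retina was above each of the 20 others. Against WT, Col9a1 was 2.22-fold higher in rd10 DR (log2 1.15, SE 0.24, adjusted p = 0.00545), and 0.73 on the log2 scale without WT retinas 2 and 4 (adjusted p = 0.00252). The calls in rd10 TMB (0.49, adjusted p = 0.0455) and rd10 vehicle (0.45, adjusted p = 0.0489) were near the threshold. The first was lost without WT retina 2 or 4 or TMB retina 1, 3, 4, 6, 7 or 8 (adjusted p = 0.0505 to 0.155), and the second without WT retina 2 or 4 or vehicle retina 2, 3, 5, 6, 7 or 8 (adjusted p = 0.0636 to 0.166). Without WT retinas 2 and 4 the log2 fold changes were 0.07 in rd10 TMB and 0.04 in rd10 vehicle, and without TMB retinas 2, 3 and 4 it was 0.46 in rd10 TMB (adjusted p = 0.0897).

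Col9a3 and Col9a2, for the other type IX chains, were higher in all 3 rd10 groups. The levels of Col9a3 were 60.4 to 98.2 CPM (median 68.8) in rd10 TMB and 50.9 to 78.1 CPM (median 71.3) in rd10 vehicle retinas. Dark-reared rd10 DR retinas gave 67.4, 82.5, 63.5 and 67.05 CPM, against 50.2, 27.2, 47.98 and 19.2 CPM in WT retinas. Every rd10 retina lay above the highest WT retina. The log2 fold changes of Col9a3 were 1.03 (SE 0.23, adjusted p = 0.00163) in rd10 TMB, 0.93 (SE 0.21, adjusted p = 0.00137) in rd10 vehicle and 0.97 (SE 0.26, adjusted p = 0.0187) in rd10 DR. With WT retinas 2 and 4 left out they were 0.58, 0.48 and 0.51, each still called. The rd10 DR call was lost without WT retina 2 (adjusted p = 0.0537) or DR retina 2 (0.0545). Col9a2 had log2 fold changes of 0.58 (SE 0.19, adjusted p = 0.0182) in rd10 TMB, 0.62 (SE 0.23, adjusted p = 0.0276) in rd10 vehicle and 0.88 (SE 0.24, adjusted p = 0.0225) in rd10 DR. Its rd10 TMB call was lost without WT retina 2 (adjusted p = 0.0707), its rd10 vehicle call without WT retina 2 (0.0921) or 4 (0.0924), and its rd10 DR call without WT retina 2 or DR retina 2, 3 or 4 (0.0517 to 0.0633). In the fits without WT retinas 2 and 4, Col9a2 had 0.17 in rd10 TMB, 0.21 in rd10 vehicle and 0.45 (adjusted p = 0.0145) in rd10 DR. Among WT retinas both genes were lowest in retinas 2 and 4, as Optc was, and vehicle retina 1 was low in Optc and in Col9a2.

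Col19a1 and Col22a1 were lower in rd10 retinas. Type XIX collagen is made by some neurons of the mouse brain, and type XXII is found at junctions such as that of muscle and tendon. For Col19a1, the rd10 TMB retinas ran from 1.84 to 4.86 CPM (median 2.605) and the rd10 vehicle retinas from 1.14 to 2.56 CPM (median 1.79). Values in rd10 DR retinas were 2.32, 2.93, 2.47 and 2.59 CPM, against 4.94, 4.94, 4.18 and 5.303 CPM in WT. Among rd10 retinas, TMB retina 4 alone reached the WT range. Col19a1 was 1.68-fold lower in rd10 TMB (log2 -0.75, SE 0.19, adjusted p = 0.00398), 2.59-fold lower in rd10 vehicle (log2 -1.37, SE 0.21, adjusted p = 5.97e-05) and 1.85-fold lower in rd10 DR (log2 -0.89, SE 0.13, adjusted p = 0.000579). The rd10 TMB call was lost without WT retinas 2 and 4 (-0.67, adjusted p = 0.0596). Col19a1 (chr1:24261890-24587472, minus strand) and Col9a1 (chr1:24177610-24252684, plus strand) are neighbours whose 3′ ends face each other, and in rd10 DR, where both calls held in every alternative, one was lower and the other higher.

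In rd10 TMB retinas Col22a1 lay at 1.31 to 3.18 CPM (median 1.99), and in rd10 vehicle retinas at 0.944 to 2.47 CPM (median 2.01). It was at 1.88, 2.26, 1.68 and 1.61 CPM in the rd10 DR retinas, against 3.78, 3.41, 4.13 and 4.66 CPM in the WT retinas. The WT retinas lay above all 20 rd10 retinas. The log2 fold changes of Col22a1 were -0.93 (SE 0.22, adjusted p = 0.00248) in rd10 TMB, -1.11 (SE 0.21, adjusted p = 0.000333) in rd10 vehicle and -1.09 (SE 0.16, adjusted p = 0.000679) in rd10 DR, and all held in every alternative run.

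All 4 membrane-spanning collagen genes were higher in rd10 vehicle than in WT, and 3 of them also in rd10 TMB and rd10 DR. Of all genes 31.6%, 27.2% and 14.5% were higher, in that order. Col17a1 encodes the collagen of hemidesmosomes, which anchor epithelial cells. Col17a1 was at 12.6 to 19.8 CPM (median 15.2) in rd10 TMB and 16.6 to 19.7 CPM (median 17.9) in rd10 vehicle retinas. Dark-reared rd10 DR retinas gave 15.4, 13.6, 13.2 and 11.9 CPM, against 8.95, 8.12, 8.56 and 7.72 CPM in WT retinas. The WT retinas were below all 20 rd10 retinas. Against WT the log2 fold change was 0.87 (SE 0.12, adjusted p = 2.61e-05) in rd10 TMB, 1.13 (SE 0.07, adjusted p = 2.13e-08) in rd10 vehicle and 0.72 (SE 0.10, adjusted p = 0.000536) in rd10 DR, and these calls held in every alternative run.

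Col23a1, second in level per kilobase, encodes a transmembrane collagen that can be shed from the cell. The levels of Col23a1 were 196 to 244 CPM (median 220.3) in rd10 TMB and 217 to 260.1 CPM (median 235) in rd10 vehicle retinas. Values in rd10 DR retinas were 176, 199, 193 and 191 CPM, against 157, 125, 174 and 110.0 CPM in WT. Rd10 and WT retinas did not overlap. Col23a1 had log2 fold changes of 0.63 (SE 0.11, adjusted p = 0.00016) in rd10 TMB, 0.75 (SE 0.10, adjusted p = 1.69e-05) in rd10 vehicle and 0.44 (SE 0.13, adjusted p = 0.0281) in rd10 DR, the last lost without WT retina 2 or 4 or DR retina 2, 3 or 4 (adjusted p = 0.05396 to 0.0792) or without WT retinas 2 and 4 (0.19, adjusted p = 0.0991). Col25a1, a collagen of neurons that motor nerves of the mouse need to innervate muscle, averaged 29.5 ± 3.39 CPM in rd10 TMB, 32.5 ± 2.58 CPM in rd10 vehicle and 29.9 ± 0.9097 CPM in rd10 DR, against 17.4 ± 1.199 CPM in WT (SD). Its log2 fold changes of 0.77 (SE 0.09, adjusted p = 6.12e-06), 0.91 (SE 0.07, adjusted p = 1.53e-07) and 0.80 (SE 0.06, adjusted p = 1.51e-05) held in every alternative run, and WT lay below all rd10 retinas. Col13a1, a collagen of the neuromuscular junction, was called in rd10 vehicle (0.48, adjusted p = 0.0477), but not without WT retina 1, 3 or 4 or vehicle retina 1, 2, 4, 5 or 6 (adjusted p = 0.0529 to 0.163) or without WT retinas 2 and 4 (0.196).

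Type VI collagen forms beaded filaments around cells, and 5 of its genes were measured. In rd10 TMB against WT 3 of them were higher, in rd10 vehicle against WT 4 and in rd10 DR against WT 1. Over all genes 27.2%, 31.6% and 14.5% were higher, and the rd10 DR count is near that share. For Col6a1, the rd10 TMB retinas ran from 79.5 to 122 CPM (median 108) and the rd10 vehicle retinas from 89.2 to 137 CPM (median 107). It was at 98.7, 95.03, 79.8 and 79.2 CPM in the rd10 DR retinas, against 76.6, 76.7, 76.3 and 74.5 CPM in the WT retinas. The WT retinas lay close together, below every rd10 retina. Col6a1 had log2 fold changes of 0.48 (SE 0.10, adjusted p = 0.00115) in rd10 TMB, 0.53 (SE 0.10, adjusted p = 0.000374) in rd10 vehicle and 0.23 (SE 0.07, adjusted p = 0.0395) in rd10 DR, the last lost without WT retina 1, 2 or 4 or DR retina 1 or 2 (adjusted p = 0.0928 to 0.108) or without WT retinas 2 and 4 (0.186).

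Col6a4, whose protein can take the place of another chain in type VI filaments, averaged 7.299 ± 1.73 CPM in rd10 TMB and 7.95 ± 1.403 CPM in rd10 vehicle, against 4.42 ± 0.816 CPM in WT (SD), with log2 fold changes of 0.73 (adjusted p = 0.00425) and 0.85 (adjusted p = 0.0002695). Its rd10 TMB call was lost in 1 alternative run. Col6a6 had 0.68 (adjusted p = 0.0561) in rd10 TMB and was higher in rd10 vehicle (0.77, adjusted p = 0.0114), a call also lost in 1 alternative run. Col6a2 was higher in rd10 TMB (0.48, adjusted p = 0.0132) and rd10 vehicle (0.52, adjusted p = 0.0154), but in neither without WT retina 2 (adjusted p = 0.0521 and 0.0553) or 4 (0.0571 and 0.0628), and without both it was 0.23 and 0.27. Its rd10 TMB call was also lost without TMB retinas 2, 3 and 4 (0.35, adjusted p = 0.0699). Col6a2 and Col6a1 lie near each other on chromosome 10, and Col6a6, Col6a5 and Col6a4 on chromosome 9. Col7a1, whose type VII collagen ties basement membranes to the tissue beneath, was called in no comparison, with 54.3 ± 14.3 CPM in rd10 TMB, 55.1 ± 10.4 CPM in rd10 vehicle, 59.9 ± 4.97 CPM in rd10 DR and 68.1 ± 11.3 CPM in WT (SD).

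Col8a1 and Col8a2 encode the chains of type VIII collagen and led several comparisons, so the 250 bases before their RefSeq starts are shown (GRCm38.p6, 5′ to 3′ on the strand of the gene). The window of Col8a1 is chr16:57754738-57754987 on the minus strand, and that of Col8a2 is chr4:126286544-126286793 on the plus strand. Capitals mark the GC box, GGGCGG, or its reverse complement CCGCCC, and neither window holds CCAAT or TATAAA on either strand.
Col8a1: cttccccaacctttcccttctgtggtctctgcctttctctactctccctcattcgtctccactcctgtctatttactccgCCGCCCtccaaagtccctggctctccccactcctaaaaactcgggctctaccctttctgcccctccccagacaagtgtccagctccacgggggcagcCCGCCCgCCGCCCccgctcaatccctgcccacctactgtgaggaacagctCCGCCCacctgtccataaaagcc
Col8a2: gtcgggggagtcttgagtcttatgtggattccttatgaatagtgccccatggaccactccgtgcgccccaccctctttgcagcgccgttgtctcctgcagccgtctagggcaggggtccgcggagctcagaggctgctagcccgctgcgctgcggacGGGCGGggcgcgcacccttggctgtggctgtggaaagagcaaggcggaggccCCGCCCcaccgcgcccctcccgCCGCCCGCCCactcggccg
Each window held 4 GC boxes, of which a pair overlap in Col8a2. The Col8a1 window had 60.8% GC and 10 CpG dinucleotides and the Col8a2 window 70.0% GC and 24, against medians of 52.4% GC and 6 CpG over 32851 windows. A GC box was present in 19 of 30 windows of collagen genes and in 32.7% of all windows, CCAAT in 10 of 30 and 33.8%, and TATAAA in 4 of 30 and 12.4%. These 30 windows belong to 27 of the 34 genes.

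Col8a1 had the largest change of the family in rd10 TMB against WT. In rd10 TMB retinas Col8a1 lay at 14.6 to 62.1 CPM (median 20.99), and in rd10 vehicle retinas at 13.7 to 29.9 CPM (median 20.8). The 4 rd10 DR retinas had 6.77, 8.29, 6.35 and 7.398 CPM, against 5.69, 7.05, 10.5 and 6.18 CPM in WT. The light-exposed rd10 retinas lay above all DR and WT retinas, which overlapped each other. Col8a1 was 4.24-fold higher in rd10 TMB than in WT (log2 2.08, SE 0.42, adjusted p = 0.000708) and 2.97-fold higher in rd10 vehicle (log2 1.57, SE 0.21, adjusted p = 1.61e-05). In rd10 DR against WT the log2 fold change was -0.02 (95% interval -0.43 to 0.40). Without TMB retinas 2, 3 and 4 the log2 fold change in rd10 TMB was 1.35 (adjusted p = 8.33e-05). Without WT retinas 2 and 4 it was 1.94 in rd10 TMB (adjusted p = 0.0212) and 1.43 in rd10 vehicle (adjusted p = 0.00132).

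Col8a2 was at 4.67 to 28.2 CPM (median 7.07) in rd10 TMB and 2.95 to 26.9 CPM (median 6.39) in rd10 vehicle retinas. Values in rd10 DR retinas were 1.04, 1.62, 0.747 and 1.47 CPM, against 3.46, 3.56, 12.1 and 2.198 CPM in WT. The DR retinas lay below the 20 others. In rd10 DR, Col8a2 was 4.32-fold lower than in WT (log2 -2.11, SE 0.50, adjusted p = 0.01097), the largest change of a collagen gene in that comparison, and without WT retina 3 it was -1.32 (adjusted p = 0.00162). Neither rd10 TMB (1.12, adjusted p = 0.105) nor rd10 vehicle (0.70, adjusted p = 0.279) passed against WT. Without WT retina 3, which had the highest WT level of Col8a2, both did: 1.92 in rd10 TMB (adjusted p = 0.00978) and 1.495 in rd10 vehicle (adjusted p = 0.0286). Other omissions made them smaller: 0.57 in rd10 TMB and 0.15 in rd10 vehicle without WT retinas 2 and 4, 0.18 in rd10 TMB without TMB retinas 2, 3 and 4, and 0.18 in rd10 vehicle without vehicle retina 1, none of them past the threshold.

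The type VIII genes were set beside 7 pigment epithelium markers, which summed to 185 to 865 CPM (median 242) in rd10 TMB, 141 to 295 CPM (median 226) in rd10 vehicle and 55.1 to 104 CPM (median 73.4) in rd10 DR retinas, against 91.7 to 154 CPM (median 112) in WT retinas. Of these 7 markers, 5 were higher in rd10 TMB and 2 in rd10 vehicle than in WT, and 3 lower in rd10 DR. Among them, Ttr averaged 223 CPM in rd10 TMB, 124 CPM in rd10 vehicle and 26.3 CPM in rd10 DR, against 35.8 CPM in WT. Rpe65 averaged 34.8, 13.4 and 3.2 CPM in the same order, against 10.4 CPM in WT. The sum and the ratios below thus rest in large part on Ttr in the rd10 TMB and rd10 vehicle retinas. Col8a1 divided by that sum was 0.06398 to 0.0915 (median 0.0814) in rd10 TMB, 0.0851 to 0.108 (median 0.0945) in rd10 vehicle and 0.0799 to 0.115 (median 0.0966) in rd10 DR, against 0.0493 to 0.0681 (median 0.0661) in WT. The rd10 vehicle and rd10 DR ratios lay above those of WT, and the TMB ratios overlapped with WT. For Col8a2 the ratio was 0.0227 to 0.0356 (median 0.0258) in rd10 TMB, 0.0209 to 0.0931 (median 0.0281) in rd10 vehicle and 0.0136 to 0.0191 (median 0.0153) in rd10 DR, against 0.02396 to 0.0782 (median 0.0313) in WT. The part of pigment epithelium RNA in these results was not tested.

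**Figure D3:**
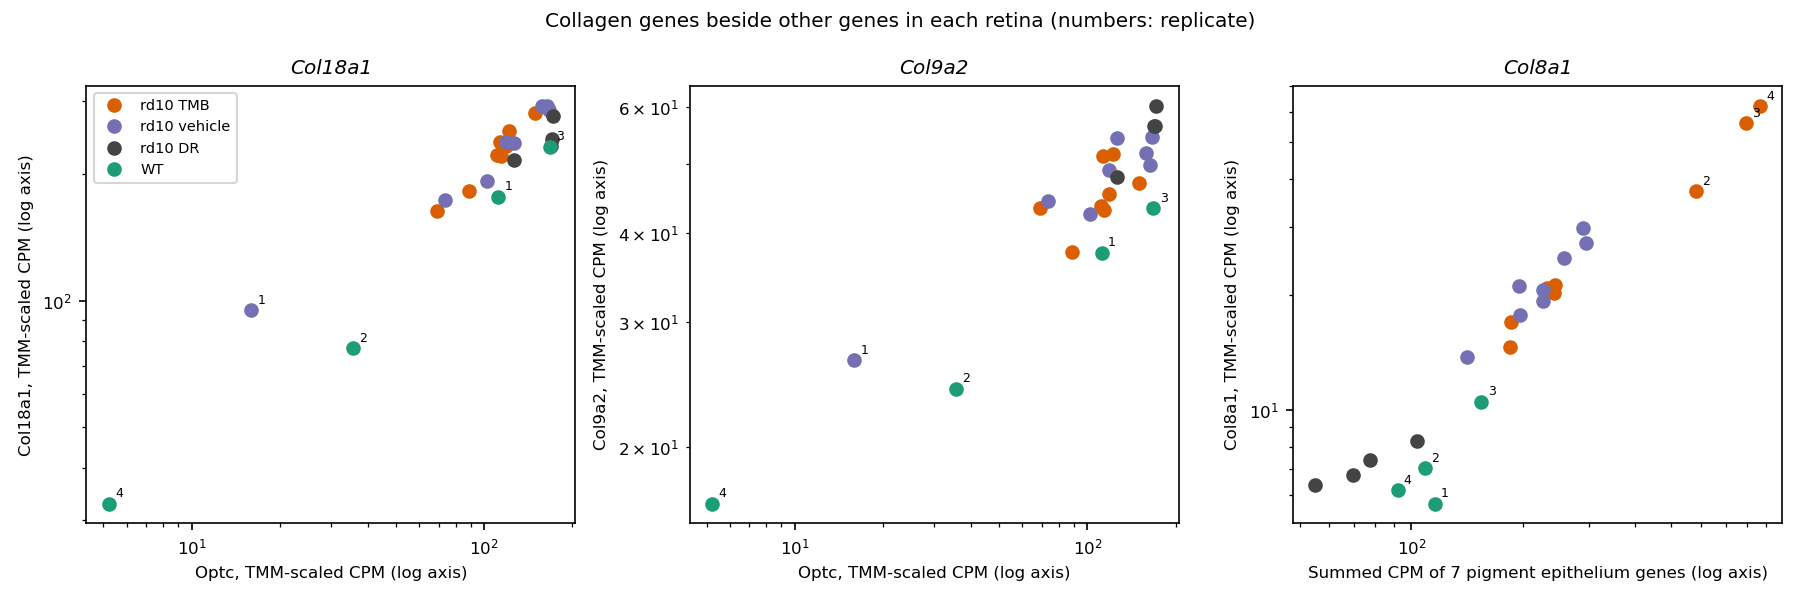
Col18a1 and Col9a2 against Optc, and Col8a1 against the sum of 7 pigment epithelium genes, in each of the 24 retinas (TMM-scaled CPM, log axes, coloured by group, with replicate numbers on the WT retinas and on the retinas that stood apart). WT retinas 2 and 4 and vehicle retina 1 are at the low end of Optc, Col18a1 and Col9a2, and TMB retinas 2, 3 and 4 at the high end of the pigment epithelium sum and of Col8a1.

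The multiplexins Col15a1 and Col18a1 lie at basement membranes, and the C-terminal part of the Col18a1 protein is released as endostatin. Col18a1 was called in no comparison. The levels of Col18a1 were 163 to 281 CPM (median 228) in rd10 TMB and 94.9 to 291 CPM (median 238) in rd10 vehicle retinas. It was at 216, 276, 243 and 234 CPM in the rd10 DR retinas, against 177, 77.2, 233 and 32.8 CPM in the WT retinas. The WT retinas spread most widely and followed Optc in order, and vehicle retina 1 was low in both. Col18a1 divided by Optc was 1.87 to 2.38 (median 2.03) in rd10 TMB, 1.72 to 5.93 (median 1.88) in rd10 vehicle and 1.39 to 1.705 (median 1.51) in rd10 DR, against 1.39 to 6.3 (median 1.88) in WT. Its log2 fold changes were 0.79 (SE 0.36, adjusted p = 0.0772) in rd10 TMB, 0.80 (SE 0.41, adjusted p = 0.102) in rd10 vehicle and 0.91 (SE 0.45, adjusted p = 0.1701) in rd10 DR. Without WT retina 3 all of them passed, in rd10 TMB (1.24, adjusted p = 0.00766), rd10 vehicle (1.24, adjusted p = 0.0184) and rd10 DR (1.35, adjusted p = 0.0138). Without WT retinas 2 and 4, which had the least Optc and Col18a1, the log2 fold changes were 0.13 (adjusted p = 0.584), 0.14 (0.734) and 0.24 (0.227), in the same order.

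Col15a1 is a multiplexin of vessel and muscle basement membranes. For Col15a1, the rd10 TMB retinas ran from 5.47 to 10.5 CPM (median 7.36) and the rd10 vehicle retinas from 6.33 to 13.4 CPM (median 7.86). The 4 rd10 DR retinas had 3.77, 5.42, 5.99 and 5.26 CPM, against 4.24, 2.89, 6.79 and 2.78 CPM in WT. It was higher in rd10 TMB (log2 0.88, SE 0.25, adjusted p = 0.00872) and in rd10 vehicle (log2 1.03, SE 0.24, adjusted p = 0.00211) than in WT, where WT retina 3 overlapped with both groups. Without WT retinas 2 and 4 neither passed (0.47, adjusted p = 0.193, and 0.62, adjusted p = 0.0614). In rd10 DR the log2 fold change was 0.31 (adjusted p = 0.458), and 0.64 (adjusted p = 0.0192) without WT retina 3.

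Col26a1, a short collagen chain known from testis and ovary, had the largest change of the family in rd10 vehicle against WT. In rd10 TMB retinas Col26a1 lay at 1.04 to 2.45 CPM (median 2.18), and in rd10 vehicle retinas at 0.793 to 2.34 CPM (median 1.46). Dark-reared rd10 DR retinas gave 3.402, 3.41, 3.24 and 4.56 CPM, against 5.37, 4.47, 5.09 and 5.01 CPM in WT retinas. The rd10 TMB and rd10 vehicle retinas lay below all DR and WT retinas, while DR retina 4 reached the WT range. Col26a1 was 2.42-fold lower in rd10 TMB (log2 -1.28, SE 0.17, adjusted p = 2.05e-05) and 3.22-fold lower in rd10 vehicle (log2 -1.69, SE 0.21, adjusted p = 6.41e-06) than in WT. The call in rd10 DR (log2 -0.43, SE 0.14, adjusted p = 0.0399) was lost in 9 alternatives, among them the fit without TMM scaling (-0.34, adjusted p = 0.0825) and those without WT retina 1 or 4 or DR retina 1, 2 or 3 (adjusted p = 0.0704 to 0.1098) or without WT retinas 2 and 4 (-0.52, adjusted p = 0.06196).

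**Figure D4:**
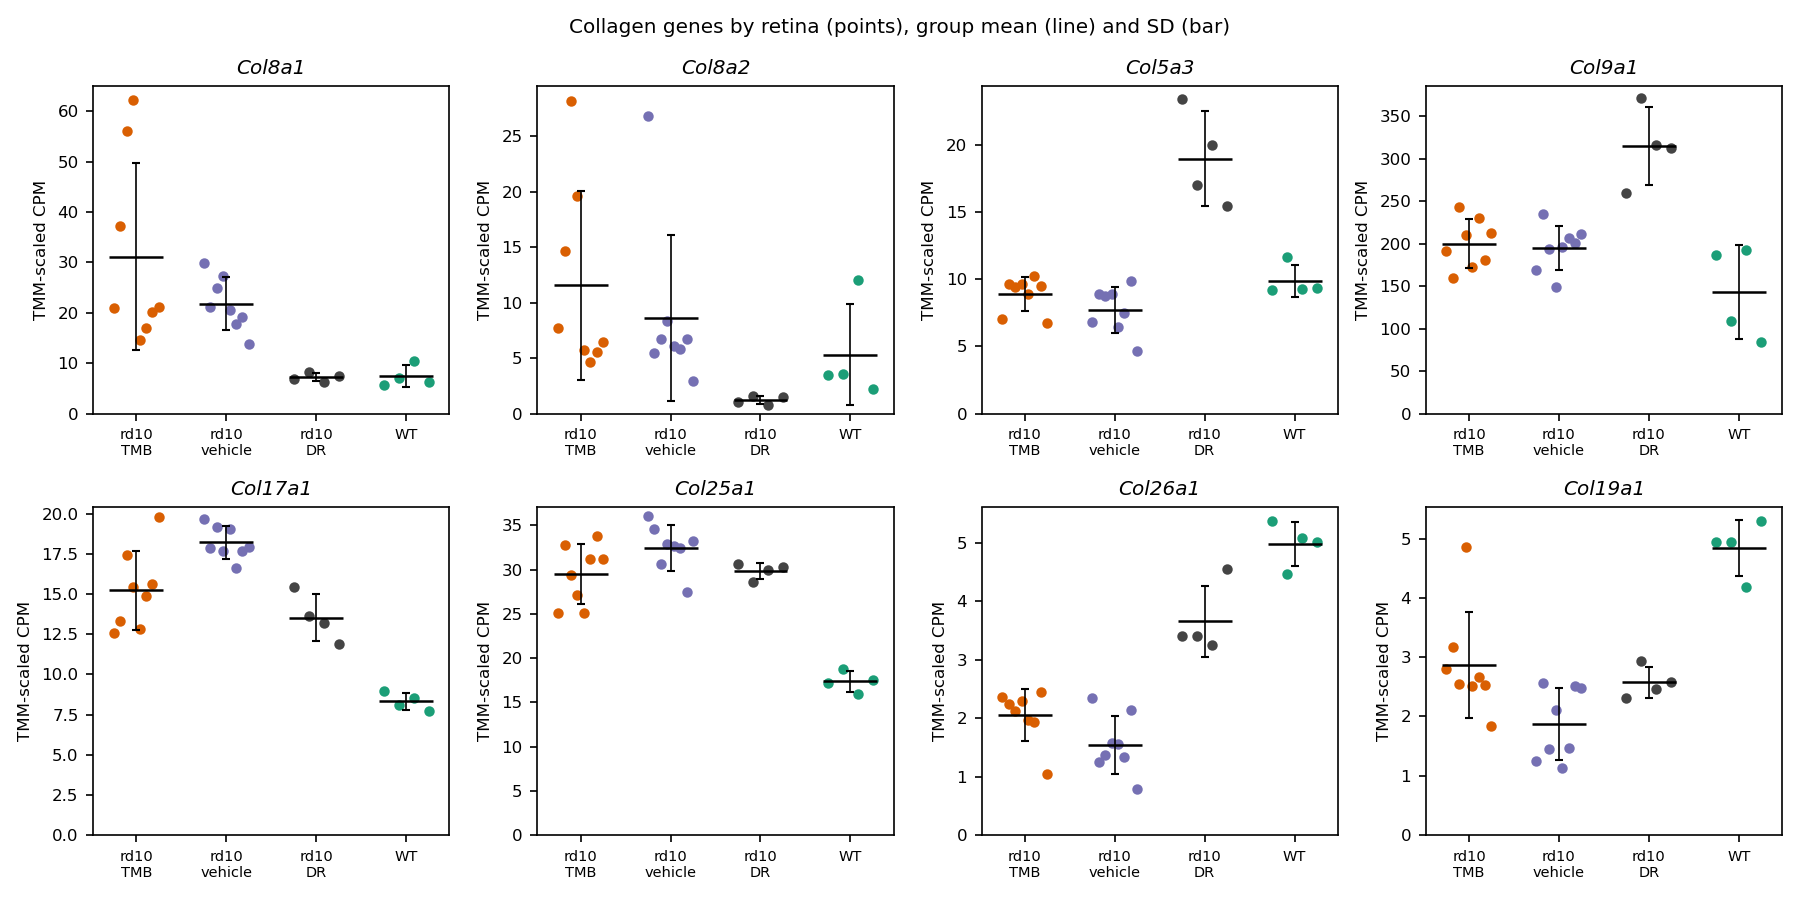
TMM-scaled CPM of 8 collagen genes in each retina (points), with the group mean (line) and SD (bar), for rd10 TMB, rd10 vehicle, rd10 DR and WT from left to right. The Col17a1 and Col25a1 values of the rd10 groups lie above those of WT, Col5a3 and Col9a1 are highest in rd10 DR, and Col8a2 is lowest there.

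The drugs were compared with vehicle in retinas of the same age, rearing and light. With edgeR, 0 collagen genes passed the threshold in rd10 TMB against rd10 vehicle, beside 3.37% higher and 2.32% lower of 20251 genes tested. Over all genes 683 were higher and 469 lower, but 656 and 1041 without TMM scaling. Leaving out single retinas gave 1 to 962 higher over all genes, and leaving out TMB retinas 2, 3 and 4 gave 1 higher and 2 lower. The log2 fold changes of the 34 genes ran between -0.36 and 0.62 with a median of -0.04, and all 34 overlapped between both groups, where 0.291% of all genes did not. At an unadjusted p under 0.05 there were 4 of 34, beside 21.7% of all genes, and DESeq2 called 1 gene higher and 1 lower, beside 5.79% and 4.45% of the genes it tested. Those were Col19a1 (log2 0.62, SE 0.20, edgeR adjusted p = 0.0776), at 2.87 ± 0.887 CPM in rd10 TMB and 1.87 ± 0.607 CPM in rd10 vehicle (SD), and Col17a1 (log2 -0.26, SE 0.08, edgeR adjusted p = 0.0638), at 15.2 ± 2.47 CPM in rd10 TMB and 18.2 ± 1.001 CPM in rd10 vehicle (SD). DESeq2 gave adjusted p = 0.0261 for Col19a1 and 0.02602 for Col17a1, and a single fit over all 4 groups called both (0.0353 and 0.0425). Col19a1 was also called without vehicle retina 2 (0.69, adjusted p = 0.0476) or TMB retina 8 (0.69, adjusted p = 0.0418). Col17a1 was also called without TMB retina 3 (-0.29, adjusted p = 0.0445) or 8 (-0.32, adjusted p = 0.0158) and with the title prefix as a covariate (-0.29, adjusted p = 0.0292). The other genes with an unadjusted p under 0.05 were Col23a1 (log2 -0.11, adjusted p = 0.194) and Col25a1 (log2 -0.14, adjusted p = 0.228).

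Col8a1 differed between rd10 TMB and rd10 vehicle by 0.51 on the log2 scale (95% interval -0.07 to 1.09, adjusted p = 0.298), and by -0.22 (adjusted p = 0.457) without TMB retinas 2, 3 and 4. Col8a2 had 0.42 (95% interval -0.49 to 1.33), and -0.52 without those retinas. The 95% intervals were -0.17 to 0.12 for Col2a1, -0.16 to 0.22 for Col9a1 and -0.22 to -0.01 for Col23a1, narrower than those of the type VIII genes. Over the same retinas, 9 of the 10 rod markers were higher in rd10 TMB than in rd10 vehicle, with a median log2 fold change of 0.76. Titles carry prefixes whose meaning the sources do not give, with 3 TMB and 3 vehicle retinas of RD9, 5 and 4 of RD10, and 1 vehicle retina of RD8. Within RD9 retinas alone and within RD10 retinas alone, edgeR called 0 collagen genes, beside 0 genes higher and 0 lower over the whole table in RD9 and 7 and 5 in RD10.

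Between the vehicle and the younger dark-reared rd10 retinas, 12 collagen genes were higher in rd10 vehicle and 4 lower, beside 21.9% and 20.6% of 20850 genes (with the same vehicle and DR retinas as in the comparisons above), and the median of their log2 fold changes was 0.22. Without TMM scaling, which gave a median over all genes of 0.12 against 0.02 with it, the split was 16 and 4, beside 6585 and 2888 over the whole table. Of the calls, 5 of 12 higher and 4 of 4 lower held in all 18 alternatives. There were 7 higher (20.6%) without DR retina 3, 6 (17.6%) without DR retina 4, and 8 (23.5%) without vehicle retina 1, 2 or 6. Over all genes 18.6%, 18.4% and 20.9 to 22.2% were higher in these fits, near the shares of the collagen genes. The type VIII genes led: Col8a2 was 7.04-fold higher in rd10 vehicle (log2 2.82, SE 0.53, adjusted p = 0.000513) and Col8a1 3.02-fold higher (log2 1.59, SE 0.18, adjusted p = 9.97e-06), and neither overlapped between groups, as for 26.8% of all genes. Col15a1 (0.73, adjusted p = 0.00377), Col17a1 (0.43, adjusted p = 0.0002104) and Col23a1 (0.32, adjusted p = 0.000254) were the other higher genes that held throughout. Over the same retinas, 6 of 7 pigment epithelium markers and 9 of 10 Müller glia markers were higher and 10 of 10 rod markers lower in rd10 vehicle. Also higher were 9 of 10 microglia and macrophage, 7 of 8 bipolar, 7 of 7 amacrine, 4 of 5 horizontal and 6 of 6 ganglion cell markers, while 5 of 5 erythrocyte markers were lower (median log2 fold change -1.74), and their part in these results was not tested.

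The 4 genes lower in rd10 vehicle than in rd10 DR were Col5a3 (2.46-fold lower, log2 -1.30, SE 0.16, adjusted p = 1.78e-05), Col26a1 (2.36-fold lower, log2 -1.24, SE 0.21, adjusted p = 0.000234), Col9a1 (1.61-fold lower, log2 -0.69, SE 0.10, adjusted p = 7.25e-05) and Col20a1 (1.46-fold lower, log2 -0.55, SE 0.13, adjusted p = 0.00274). The retinas of both groups did not overlap for these 4. For the other type IX chains the log2 fold changes were -0.25 (Col9a2, adjusted p = 0.173) and -0.04 (Col9a3, adjusted p = 0.775). Col6a1 (0.31, adjusted p = 0.0301) was lost without DR retina 3 (0.103) or 4 (0.106), and Col27a1 (0.40, adjusted p = 0.0281) without DR retina 1, 3 or 4 (0.0547 to 0.0956). Col11a2, Col12a1, Col24a1 and Col6a4 were each lost on leaving out any of 6 to 8 retinas, DR retinas 3 and 4 and vehicle retinas 1, 2 and 6 among them for all 4. Their adjusted p then ran over 0.0546 to 0.1305 for Col11a2, 0.0517 to 0.0966 for Col12a1, 0.0538 to 0.1195 for Col24a1 and 0.0531 to 0.134 for Col6a4. Col1a2 (0.44, adjusted p = 0.00986) was lost when all 4 groups shared 1 fit (adjusted p = 0.297).

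Chains that can share a molecule or a fibril were set side by side within each retina, as the ratio of their counts, which no scaling factor affects. In all, 6 ratios were compared in the 5 comparisons, giving 30 exact two-sided permutation tests over retinas with Benjamini-Hochberg adjustment, and the pairs were chosen after the values had been seen. Col9a1 over Col9a3 was 2.77 ± 0.419 in rd10 TMB, 2.87 ± 0.342 in rd10 vehicle and 4.496 ± 0.472 in rd10 DR, against 4.03 ± 0.265 in WT (SD). It was 1.47-fold lower in rd10 TMB than in WT, 1.41-fold lower in rd10 vehicle than in WT and 1.57-fold lower in rd10 vehicle than in rd10 DR, each with no overlap (exact permutation p = 0.00404, adjusted p = 0.0242 in all 3). The rd10 DR and WT ratios overlapped (exact permutation p = 0.171, adjusted p = 0.302). Col9a1 over Col9a2 passed in no comparison after adjustment (lowest adjusted p = 0.101, exact permutation tests).

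Col5a3 over Col5a1 was 0.307 ± 0.0357 in rd10 TMB, 0.278 ± 0.0728 in rd10 vehicle and 0.629 ± 0.104 in rd10 DR, against 0.424 ± 0.143 in WT (SD). The ratio was 2.31-fold lower in rd10 vehicle than in rd10 DR with no overlap (exact permutation p = 0.00404, adjusted p = 0.0242). Col8a1 over Col8a2 was 2.94 ± 0.581 in rd10 TMB, 3.23 ± 1.02 in rd10 vehicle and 6.29 ± 1.62 in rd10 DR, against 1.83 ± 0.804 in WT (SD). It was 2.03-fold lower in rd10 vehicle than in rd10 DR (exact permutation p = 0.00404, adjusted p = 0.0242). In rd10 DR against WT it was 3.65-fold higher with no overlap, and the exact permutation p of 0.0286 is the smallest that 4 against 4 allows (adjusted p = 0.107). Col6a1 over Col6a2 and Col11a1 over Col2a1 passed in no comparison, with a lowest adjusted p of 0.198 and 0.2803 (exact permutation tests). Between rd10 TMB and rd10 vehicle the 6 ratios had adjusted p = 0.2803 to 0.934 (exact permutation tests).

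**Figure D5:**
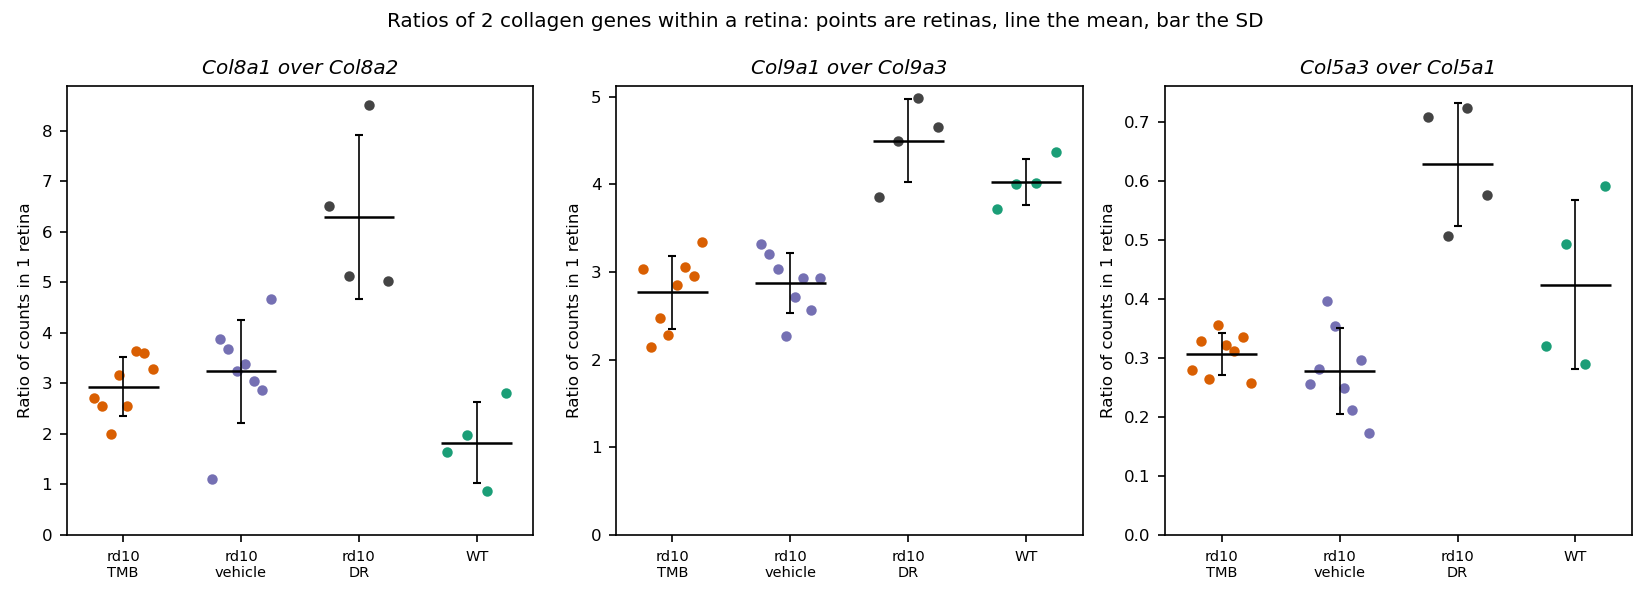
Ratio of the counts of 2 collagen genes within each retina (points), with the group mean (line) and SD (bar), for rd10 TMB, rd10 vehicle, rd10 DR and WT from left to right. Col9a1 over Col9a3 lies at 2.15 to 3.34 in rd10 TMB and 2.27 to 3.32 in rd10 vehicle retinas, below the 3.72 to 4.37 of WT, and the means of Col5a3 over Col5a1 and Col8a1 over Col8a2 are highest in rd10 DR.

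Genes whose proteins build, cut or bind collagens were counted in the same fits, to be read beside the 27.2%, 31.6% and 14.5% of all genes that were higher in rd10 TMB, rd10 vehicle and rd10 DR against WT. Of those that modify and fold the chains, 7 of 17 were higher and 1 lower in rd10 TMB against WT, 7 of 17 and 2 in rd10 vehicle, and 3 of 17 and 0 in rd10 DR, the last near the share of all genes. The leading ones in rd10 vehicle were P4ha3, a subunit of prolyl 4-hydroxylase (1.95-fold, adjusted p = 0.000256), and P3h3, of the prolyl 3-hydroxylase family (1.82-fold, adjusted p = 2.28e-05). P4ha3 was near 1 CPM, the limit used here for low genes, with means of 1.28 CPM in rd10 vehicle and 0.658 CPM in WT. Of the genes for propeptide removal and cross-linking, 7 of 13 were higher and 1 lower in rd10 TMB against WT, 8 of 13 and 1 in rd10 vehicle, and 5 of 13 and 0 in rd10 DR. Loxl4, a relative of lysyl oxidase, which cross-links collagen, averaged 17.1 ± 5.29 CPM in rd10 TMB, 13.5 ± 5.02 CPM in rd10 vehicle and 17.6 ± 5.27 CPM in rd10 DR, against 2.21 ± 0.372 CPM in WT (SD). That was 7.74-fold, 6.11-fold and 8.07-fold higher (adjusted p = 3.79e-07, 3.81e-06 and 5.19e-06). Pcolce, which speeds removal of the C-terminal propeptide, averaged 82.5 ± 16.8 CPM in rd10 TMB, 63.5 ± 17.4 CPM in rd10 vehicle and 71.6 ± 8.55 CPM in rd10 DR, against 21.2 ± 17.6 CPM in WT (SD), and was 3.005-fold higher in rd10 vehicle than in WT (adjusted p = 0.00235). The WT retinas had 16.6, 13.6, 46.9 and 7.64 CPM, in which the highest was that with the most Optc and the lowest that with the least. The rd10 vehicle fold was 5.05 without WT retina 3 (adjusted p = 5.67e-06) and 2.001 without WT retinas 2 and 4 (0.0344).

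Of the genes of collagen breakdown and its inhibitors, 9 of 13 were higher and 0 lower in rd10 TMB against WT, 8 of 13 and 0 in rd10 vehicle, and 5 of 12 and 0 in rd10 DR. They were led in rd10 vehicle by Timp1, an inhibitor of matrix metalloproteinases (8.78-fold, adjusted p = 0.000536), with 5.496 ± 1.12 CPM in rd10 TMB, 7.31 ± 6.81 CPM in rd10 vehicle and 4.04 ± 0.562 CPM in rd10 DR, against 0.839 ± 0.673 CPM in WT (SD), and by Fap, a membrane protease (2.44-fold, adjusted p = 5.26e-05). Vehicle retina 4 had 24.1 CPM of Timp1 against 4.17 to 6.19 CPM in the other vehicle retinas, and WT retina 3 1.82 CPM. Its rd10 vehicle fold was 5.895 without vehicle retina 4 (adjusted p = 2.61e-05), 14.4 without WT retina 3 (0.000224) and 5.796 without WT retinas 2 and 4 (0.0174). Of the collagen receptors, 5 of 9 were higher and 0 lower in rd10 TMB against WT, 8 of 9 and 0 in rd10 vehicle, and 5 of 9 and 0 in rd10 DR. Cd44, a hyaluronan receptor that also binds collagen, averaged 57.1 ± 8.02 CPM in rd10 TMB, 69.5 ± 28.3 CPM in rd10 vehicle and 42.3 ± 10.3 CPM in rd10 DR, against 12.8 ± 6.86 CPM in WT (SD), and was 5.45-fold higher in rd10 vehicle than in WT (adjusted p = 1.75e-05). Vehicle retina 4 had 137.2 CPM of Cd44, against 49.93 to 75.35 CPM in the other vehicle retinas. The WT retinas had 11.14, 9.092, 22.89 and 8.036 CPM of Cd44, in the order of their Optc, as they did for Timp1. Itga2, the integrin subunit that binds fibrillar collagen, was 2.52-fold, 2.904-fold and 2.43-fold higher in rd10 TMB, rd10 vehicle and rd10 DR than in WT. Of other basement membrane genes, 4 of 15 were higher and 0 lower in rd10 TMB against WT, 5 of 15 and 0 in rd10 vehicle, and 2 of 15 and 0 in rd10 DR, near the shares of all genes, led in rd10 vehicle by Lamb2, a laminin chain (2.005-fold, adjusted p = 0.000151), and Agrn, agrin (1.96-fold, adjusted p = 1.46e-07). Lamb2 was at 35.4, 29.65, 47.27 and 18.17 CPM in the WT retinas, also in the order of their Optc. Of the small leucine-rich proteoglycans, which bind fibrils, 2 of 7 were higher and 0 lower in rd10 TMB against WT, 3 of 7 and 0 in rd10 vehicle, and 1 of 7 and 0 in rd10 DR, led in rd10 vehicle by Prelp (2.89-fold, adjusted p = 3.15e-07) and Fmod (2.71-fold, adjusted p = 0.01703). Fmod was at 26.4, 10.9, 41.1 and 2.96 CPM in the WT retinas, in the order of their Optc, and its rd10 vehicle fold was 4.12 without WT retina 3 (adjusted p = 0.00189), 2.35 without WT retina 2 (0.05905) and 1.63 without WT retinas 2 and 4 (0.0707). In rd10 TMB against rd10 vehicle 0 genes of these 6 lists were called by edgeR, and 2, 3, 5, 1, 1 and 3 had an unadjusted p under 0.05, in the order given, beside 21.7% of all genes. Between rd10 vehicle and rd10 DR, 5 of 9 receptors were higher and 0 lower, and 4 of 13 breakdown genes higher and 1 lower, beside 21.9% higher and 20.6% lower of all genes.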

How the data were processed

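PolyA RNA of 24 whole-retina samples was sequenced from an unstranded kit, so overlapping and antisense genes cannot be told apart. Shared exon bases were at most 6.07% of a member's (Col9a3). Counts per gene were deposited by the authors, whose processing notes name FastQC, Trimmomatic, STAR, HTSeq and DESeq2, and the builds GRCm38 and mm10, without versions or settings. A set of 8 repeated WT columns was equal to the others, and 0 columns were unmatched. Nuclear genes (31346) were used. Retinas were grouped by their labels, and p-values measure the spread between these retinas.

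Genes were filtered per comparison (filterByExpr) and tested with TMM scaling and the quasi-likelihood test of edgeR 4.0.16 (R 4.3.3), on the samples of both groups, at an adjusted p of 0.05 (Benjamini-Hochberg over all genes tested); intervals are at 95%. Genes below 1 CPM in every group were marked as low. DESeq2 1.42.0, no TMM, no filter, sex or title prefix as covariates, 1 fit over all 4 groups, single prefixes and leaving out retinas were the alternatives. Ratios used exact permutation tests (Python 3.11.15, SciPy 1.17.1), and figures matplotlib 3.10.9. The fits were also run on simulated data, with the same dispersion for every gene and no library that stood apart. Those data lack the wide spread of some genes among the WT retinas, so they do not check the calls that rest on it. Promoter windows came from RefSeq, GRCm38.p6.

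The members and lists were chosen with earlier results of these data known. Genes described in full were the 5 of highest mean CPM, the 6 largest changes among called genes of at least 1 CPM in each comparison, any gene called between rd10 TMB and rd10 vehicle (0), and from each partner list the 2 largest changes in rd10 vehicle against WT; others named beside them, the chain pairs and the marker ratios were chosen after the values were seen. A planned description of paired genes was not run.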

Additional observations from a re-analysis of the deposited data

Results flagged for a closer look

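In 18 of the 136 groups examined (34 genes in 4 groups), 1 retina stood apart from the rest of its group by Dixon's test at the 95% level, which chance gives in about 1 group in 20. Several of them came from retinas that also stood apart in other tissues' genes. In vehicle retina 1, which had little Optc, Col8a2 was at 26.85 CPM, the others 2.945 to 8.386, Col5a2 at 12.48 CPM, the others 2.073 to 6.984, Col16a1, a fibril-associated chain, at 20.96 CPM, the others 6.621 to 12.95, and Col15a1 at 13.37 CPM, the others 6.331 to 9.056, whereas Col9a2 was low at 26.49 CPM, the others 42.49 to 54.53. In TMB retina 3, which had a high pigment epithelium sum, Col1a2 was at 62.4 CPM, the others 29.72 to 44.66, Col5a2 at 9.132 CPM, the others 1.85 to 4.752 and Col16a1 at 16.03 CPM, the others 6.57 to 11.02. In WT retina 3, which had the most Optc of the WT retinas, Col8a2 was at 12.06 CPM, the others 2.198 to 3.557, and Col16a1 at 14.98 CPM, the others 3.445 to 5.319. The part of neighbouring tissue in these values was not tested.

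The remaining retinas stood apart in 1 gene each or in genes near the lower limit. Col19a1 was at 4.858 CPM, the others 1.837 to 3.179, in TMB retina 4, which had the highest pigment epithelium sum. Col26a1 was at 1.042 CPM, the others 1.938 to 2.449, in TMB retina 8, and at 4.556 CPM, the others 3.245 to 3.411, in DR retina 4. Col11a1 was at 38.27 CPM, the others 27.13 to 29, in DR retina 2, and Col20a1 at 58.25 CPM, the others 49.95 to 50.54, in DR retina 1. Col5a3 was at 11.68 CPM, the others 9.223 to 9.372, in WT retina 2, which had little Optc. Col6a5 was at 0.8127 CPM, the others 0.2366 to 0.4978, in vehicle retina 7, and Col10a1 at 0.3839 CPM, the others 0.1373 to 0.2345, in TMB retina 5. Of the tests of whether a fold change differed between females and males (5 comparisons) or between RD10 and RD9 retinas (rd10 TMB against rd10 vehicle), edgeR called 0 collagen genes, and 2 to 7 by sex and 1 by prefix had an unadjusted p under 0.05. Over all genes, 0 were called by sex and 1 of 21610 by prefix, so the 0 is not particular to collagens. The share of all genes with an unadjusted p under 0.05 was not counted in these tests.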

How the results depend on the processing

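No paired analysis was possible because the replicate numbers were given in accession order and pair no animals. Over all alternatives, the collagen genes called kept their direction, and 154 of 1322 values fell below the threshold. Counts of collagen genes higher and lower ran over 12 to 19 and 4 to 5 in rd10 TMB against WT, 13 to 20 and 4 to 5 in rd10 vehicle against WT, 6 to 17 and 3 to 6 in rd10 DR against WT, 0 to 1 and 0 to 1 in rd10 TMB against rd10 vehicle and 6 to 14 and 4 to 4 in rd10 vehicle against rd10 DR when single retinas were left out. In the last of these comparisons 18.4 to 22.2% of all genes were then higher and 17.5 to 21.4% lower. Without WT retinas 2 and 4 (chosen after seeing the data, as was leaving out TMB retinas 2, 3 and 4) the higher counts were 9 in rd10 TMB, 8 of them among the 14, and 11 in rd10 vehicle, and with RD9 TMB retinas alone 7 in rd10 TMB. Over all genes 18.2%, 23.5% and 20.3% were higher in these fits, in the order given. The last share is near the 20.6% of the collagen genes in that fit. In rd10 TMB against rd10 vehicle, 1 gene was higher and 1 lower in DESeq2 and with 1 fit over all 4 groups, and 1 lower with the title prefix as a covariate. By CPM without TMM or by medians, 2 genes and not 3 were below 1 CPM in all groups.

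The genes whose sign changed were not called, and the cause was not tested. Against WT, Col5a3 in rd10 TMB was 0.0168 without TMM, and in rd10 DR Col8a1 was 0.0722 without TMM and -0.14 to 0.20 leaving out single retinas, and Col15a1 -0.12 and Col1a2 -0.13 without WT retinas 2 and 4. In rd10 TMB against rd10 vehicle, Col9a1 was -0.000506 without TMM, -0.0973 in RD9 retinas and -0.0137 to 0.07504 leaving out single retinas. Col18a1 was 0.0268 with sex and 0.0623 with prefix as a covariate, 0.29 in RD10 retinas and -0.12 to 0.0516 leaving out single retinas, and Col6a1 -0.0885 to 0.00228. In RD9 retinas Col5a3 was -0.0447 and Col9a3 -0.13, in RD10 retinas Col1a2 0.0772 and Col2a1 0.00631. Without TMB retinas 2, 3 and 4, Col9a3 was -0.0819, Col2a1 0.03801, Col8a1 -0.22 and Col8a2 -0.52. In rd10 vehicle against rd10 DR, Col22a1 was 0.0941 without TMM, 0.000813 with no expression filter, 0.001198 with sex as a covariate, 0.18 with RD10 vehicle retinas alone and -0.0766 to 0.10 leaving out single retinas, Col9a3 0.0602 without TMM and -0.0822 to 0.0503 leaving out single retinas, and Col18a1 -0.17 to 0.0123.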
